A study of Drosophila melanogaster with 3 samples.

Results

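The genes described here are the transcription factors of the embryonic neuroblast temporal series of Drosophila melanogaster: hb, Kr, nub, pdm2, cas and grh, given in the order in which neuroblasts express them, and svp. These 7 genes, out of 13945 protein-coding genes on the main chromosome arms, were chosen by name, and each peak was given to the gene whose transcription start site (TSS) lay nearest to the peak's summit. The measurement was chromatin immunoprecipitation and sequencing of Nerfin-1, a zinc-finger protein of newborn neurons, in a stable transgenic fly line in which the protein carries GFP at its C terminus. An antibody against GFP was used on sonicated chromatin (fragments of 200 to 800 bp) from whole embryos of both sexes aged 4 to 16 h, with 3 biological replicates and no second condition. Whole embryos mix neuroblasts, neurons and all other tissues, so a peak does not show in which cells the site was bound. What drives the transgene is not given in the sources used here.

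Neural stem cells of the fly embryo, the neuroblasts, express a sequence of transcription factors as they divide, and the factor present at a division marks the fate of the neurons born from it. Hunchback (Hb) comes before Krüppel (Kr), then the POU proteins Pdm1 (encoded by nub) and Pdm2, then Castor (Cas) and Grainyhead (Grh). Seven-up (Svp), an orphan nuclear receptor, ends the Hb window. Nerfin-1 acts in neuroblast progeny and is known for keeping young neurons from returning to a neuroblast state. Whether it has that role at the embryonic stage used was not examined here.

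The sites that carry the results are shown as the 101 bp centred on the summit, on the plus strand of release 6 (RefSeq), with capitals marking any of the 12 short words searched for below. The Kr, grh and nub sites are described by position only.
cas, promoter site, chr3R:5717120-5717220: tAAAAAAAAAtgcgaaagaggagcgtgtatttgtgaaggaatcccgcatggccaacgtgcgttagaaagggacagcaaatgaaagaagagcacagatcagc
svp, intron site beyond the main start sites, chr3R:12291999-12292099: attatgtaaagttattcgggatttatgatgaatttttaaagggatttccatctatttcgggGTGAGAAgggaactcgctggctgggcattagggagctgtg
svp, intron site before the main start sites, chr3R:12279021-12279121: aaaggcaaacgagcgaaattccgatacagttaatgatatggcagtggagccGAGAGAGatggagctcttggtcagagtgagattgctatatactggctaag
pdm2, promoter site, chr2L:12678323-12678423: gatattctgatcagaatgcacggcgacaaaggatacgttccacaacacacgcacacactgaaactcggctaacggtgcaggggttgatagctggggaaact
pdm2, intron site, chr2L:12681863-12681963: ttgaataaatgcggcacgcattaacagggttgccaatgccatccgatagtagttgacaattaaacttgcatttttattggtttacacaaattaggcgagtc
hb, its strongest pooled site, which missed the thresholded list, chr3R:8702386-8702486: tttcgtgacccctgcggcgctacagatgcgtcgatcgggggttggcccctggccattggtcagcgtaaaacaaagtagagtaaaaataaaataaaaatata

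Nerfin-1 peaks passed the threshold of the authors' irreproducible discovery rate (IDR) list at 6 of the 7 temporal factor genes. The 7056 peaks of that list gave 11 summits to these genes: 3 to grh, 2 each to Kr, pdm2 and svp, 1 each to nub and cas, and 0 to hb. Among all protein-coding genes, 28.6% had an IDR summit. The members have long surroundings, with territories (the bases for which a gene's TSS is the nearest one) of 13.4 to 50.1 kb against a median of 4.23 kb for all genes. Of the 2232 genes with territories in that range, 45.3% had an IDR summit. The members held 0.587 IDR summits per 10 kb of territory, against 0.476 for genes in the same range and 0.535 for all genes. No test was made of these differences, since the genes were named with earlier results of these data known.

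In the longer list of 30000 peaks called on the pooled replicates, all 7 members had summits, 60 in total. They numbered 18 at nub, 11 at pdm2, 8 at Kr, 7 each at cas, grh and svp, and 2 at hb. A pooled summit was found at 51.9% of all protein-coding genes and at 68.7% of those with territories in the members' range. Per 10 kb the members had 3.20 pooled summits, with 1.29 at hb and 5.23 at cas as the lowest and highest, against 2.37 for genes in the same range. Every IDR summit was also a pooled summit, and the IDR list ended at pooled rank 7056, where rank 1 is the peak with the highest deposited signal.

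In single replicates the number of members with a summit among the 7056 strongest peaks was 6, 5 and 6 in replicates 1, 2 and 3 (5.67 ± 0.577, SD, n = 3). Of all protein-coding genes, 27.2%, 30.3% and 26.9% had such a summit in the same replicates. The members' strongest summits numbered 11, 11 and 13 (11.7 ± 1.15, SD, n = 3). Behind these similar totals, single genes differed between replicates. Kr had 2, 0 and 4 of the strongest summits in replicates 1, 2 and 3, and grh had 2, 4 and 1. In contrast, cas had 1 and pdm2 had 2 in each replicate, and hb had 0 in each. At pdm2 the equal count hid a difference in summit positions. Only the summit 231 bp upstream of the pdm2-RA TSS recurred within 100 bp, and the other summit differed in position between replicates. In replicate 1 it lay at 12681806, inside the peak interval of the IDR summit at 12681913. In replicate 3 it lay at 12678564, inside the interval of the IDR summit at 12678373. These offsets do not show that different sites were bound. Over all 30000 peaks of a list the members had 60, 43 and 74 summits in replicates 1, 2 and 3 (59.0 ± 15.5, SD, n = 3), with the widest spread at Kr (8, 3 and 14).

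**Figure D1:**
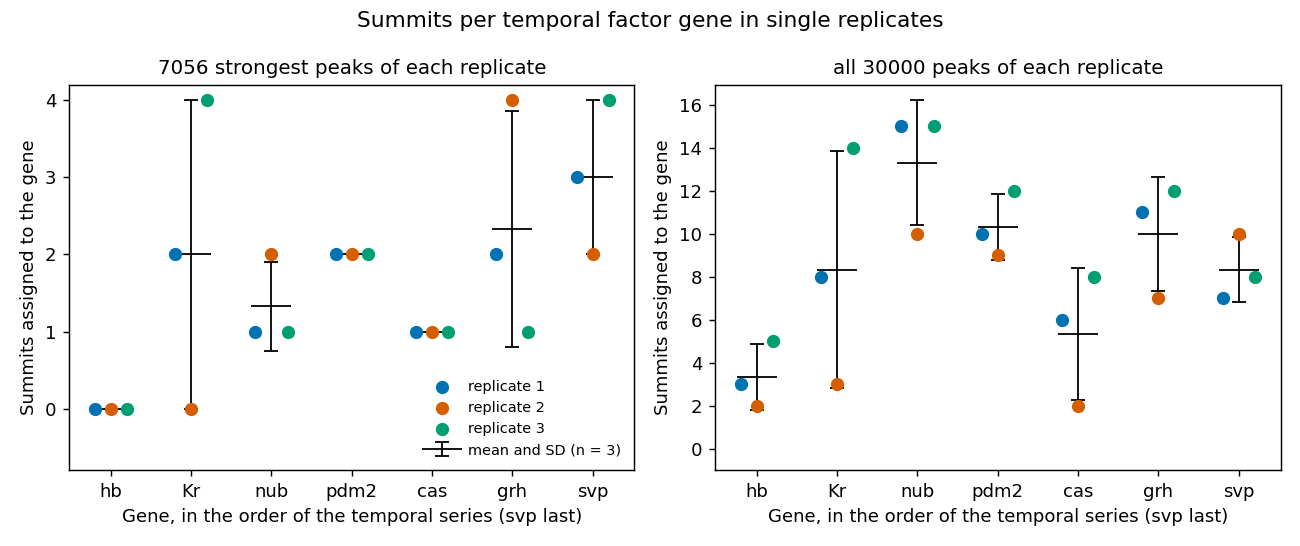
Summits assigned to each temporal factor gene (vertical axis, number) in replicates 1, 2 and 3 (coloured points), with their mean and SD (n = 3), among the 7056 strongest peaks (left) and all 30000 peaks (right) of each replicate. Kr and grh spread most on the left, with 2, 0 and 4 at Kr and 2, 4 and 1 at grh, while pdm2 and cas held 2 and 1 in every replicate. The 2 at pdm2 did not all match within 100 bp between replicates.

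The earliest factor, hb, which encodes the zinc-finger protein of the first-born neurons, was the member without an IDR summit. Its 2 pooled summits ranked 14215 and 17224, at 8702436 and 8704304 of arm 3R, in intergenic sequence 4614 and 6482 bp upstream of the distal TSS (transcript hb-RB). No pooled summit lay inside the gene (FBgn0001180, 3R, 8690980 to 8697822, minus strand). The summits given to hb by the nearest TSS numbered 3, 2 and 5 in replicates 1, 2 and 3, and the best of them ranked 12740, 22577 and 7483. The best, in replicate 3, lay 149 bp from the distal TSS, and replicate 1 had a summit nearby at rank 17688. Replicate 3 also had a summit 277 bp from the proximal TSS, at rank 13597, which neither other replicate had within 100 bp. So the distal promoter peak of hb was called in replicates 1 and 3 and the proximal one in replicate 3 only, at ranks beyond 7056. Neither was in the pooled list.

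Kr encodes the zinc-finger factor that follows Hb, and it had a summit at each end of the gene. The gene (FBgn0001325, 2R, 25226611 to 25231394) lies inside CG9380. The promoter summit at 25226650, 39 bp downstream of the TSS and in the 5′ UTR, had rank 6056 in the IDR list. It ranked 5602 in replicate 1 and 3376 in replicate 3 and had no match within 100 bp among the 30000 peaks of replicate 2. The other summit, at 25230999 in the 3′ UTR, had rank 3535 in the list and 2535, 10694 and 2020 in replicates 1, 2 and 3. Both sites were therefore weak in or missing from replicate 2. A further 6 pooled summits of Kr, at ranks 13828 to 26543, lay between the 3′ UTR and 9675 bp downstream of the TSS. Within the IDR list Kr was the member whose best summit was exceeded by that of 2441 of the 3989 genes with a summit, after which came pdm2 with 2612 and nub with 3250.

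The POU genes nub (FBgn0085424, 2L, 12587625 to 12628135) and pdm2 (FBgn0004394, 2L, 12657165 to 12686306) are neighbouring paralogs transcribed in the same direction. They had many pooled summits but few of high rank. At nub 1 of 18 passed into the IDR list, at 12618674, 109 bp upstream of the TSS of nub-RE, in sequence annotated as 5′ UTR. Its rank was 5219 in the list and 4102, 11908 and 3648 in replicates 1, 2 and 3. The distal start site of nub (nub-RB, at 12587625) had no IDR summit, and the pooled summits nearest to it lay 1421 to 1905 bp downstream at ranks 19279 to 25983.

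At pdm2 the IDR summits stood 231 bp upstream and 3309 bp downstream of the internal TSS of pdm2-RA. The upstream summit, at 12678373, ranked 3892 in the list and 3321, 6900 and 3214 in replicates 1, 2 and 3. A second pooled summit at 12678595, 9 bp from this TSS, ranked 8028, just outside the list. The intron summit, at 12681913, ranked 5258 in the list and 9432, 6926 and 8469 in the replicates, so it was among the 7056 strongest peaks of replicate 2 only. Replicate 1 also had a stronger summit, rank 3242, at 12681806, just beyond the 100 bp that counted as a match. The first 3 start sites of pdm2 (12657165, 12657722 and 12657824) had no pooled summit assigned to them. At both genes, then, the start site nearest to the thresholded summits was an internal one. The 29.0 kb between nub and pdm2 held 5 pooled summits, none in the IDR list, of which 2 went to nub, 0 to pdm2 and 3 to other genes.

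The strongest site of the 7 genes in the IDR list lay at cas, the gene of a zinc-finger factor of late neuroblasts (FBgn0004878, 3R, 5712975 to 5716805, minus strand). Its promoter summit at 5717170, 365 bp upstream of the TSS of cas-RA and cas-RC, had rank 154 in the IDR list. In the replicates it ranked 90, 549 and 103. All 3 thus placed it far above rank 7056, with the lowest place in replicate 2, where the strongest grh site stood above it at 425. The best summits of 147 genes ranked above it. Its peak was 541 bp wide (5716853 to 5717393), whereas 436 bp was the median width in the list. The other 6 pooled summits of cas all lay upstream, 1272 to 7783 bp from the TSS, at ranks 18007 to 23060. Those from 5357 bp outward lay nearer to a start site of a non-coding gene, 541 to 1885 bp away. The farthest was in an exon of lncRNA:CR44924. The promoter summit thus stood alone among the strong sites of cas, and no pooled summit fell inside the gene.

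The last factor, grh (FBgn0259211, 2R, 17801132 to 17842820), encodes the founding member of the Grainyhead family and is also active in epidermis. It had the most IDR summits of the members. The strongest, at 17804945, lay in an intron 2078 bp downstream of the TSS of grh-RH, grh-RI and grh-RL. It had rank 478 in the list and 570, 425 and 683 in replicates 1, 2 and 3, a narrower range than at cas. The second, at 17813738, stood 606 bp upstream of the TSS of grh-RK at rank 2874 (5074, 1838 and 7532 in the replicates). The third, at 17801310, 178 bp downstream of the first TSS (grh-RP), ranked 6533 (11920, 5505 and 8086), close to the end of the list. At each of the 3 sites replicate 2 gave the best rank, the opposite of the order at cas, Kr, nub and svp. The most distal TSS of the gene (grh-RN and grh-RO) had a pooled summit 1063 bp upstream at rank 17306.

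The switching factor svp (FBgn0003651, 3R, 12258737 to 12302785) encodes a COUP-TF type nuclear receptor. Its IDR summits lay in introns on either side of the close start sites of svp-RA and of svp-RB, svp-RE and svp-RF. The one at 12292049, 10897 bp downstream of the TSS of svp-RB, svp-RE and svp-RF, had rank 2109 in the list and 1597, 3970 and 1438 in replicates 1, 2 and 3. The one at 12279071, 2039 bp upstream of the TSS of svp-RA, had rank 2575 in the list and 2263, 4480 and 1712 in the replicates. Both were among the 7056 strongest peaks of every replicate. A summit at the promoter itself (12280963, 147 bp upstream of svp-RA) ranked 8194 in the pooled list and stayed outside the IDR list. It ranked 6509, 29933 and 4058 in replicates 1, 2 and 3.

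Assignment to the nearest TSS leaves part of the svp, nub and pdm2 gene bodies to other genes. Inside svp, 4 IDR summits were found, of which 2 were given to other genes. These were the summit at 12272241 (rank 3534), given to Sfp87B, and that at 12265724 (rank 6737), given to CG44038. Sfp87B, CG44038 and CG17738 have start sites between the distal one of svp (svp-RC, at 12258737) and the others, and together they received 8 of the 15 pooled summits inside it. Inside nub, the IDR summit at 12613264 (rank 6655) was given to Ref2. Inside pdm2, 1 of 12 pooled summits (12673042, rank 25750) was given to Nepl7, whose start site lies between those of pdm2. Counting by gene body would give the members 13 IDR summits at 5 genes, without cas, whose summit lies upstream of the gene.

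**Figure D2:**
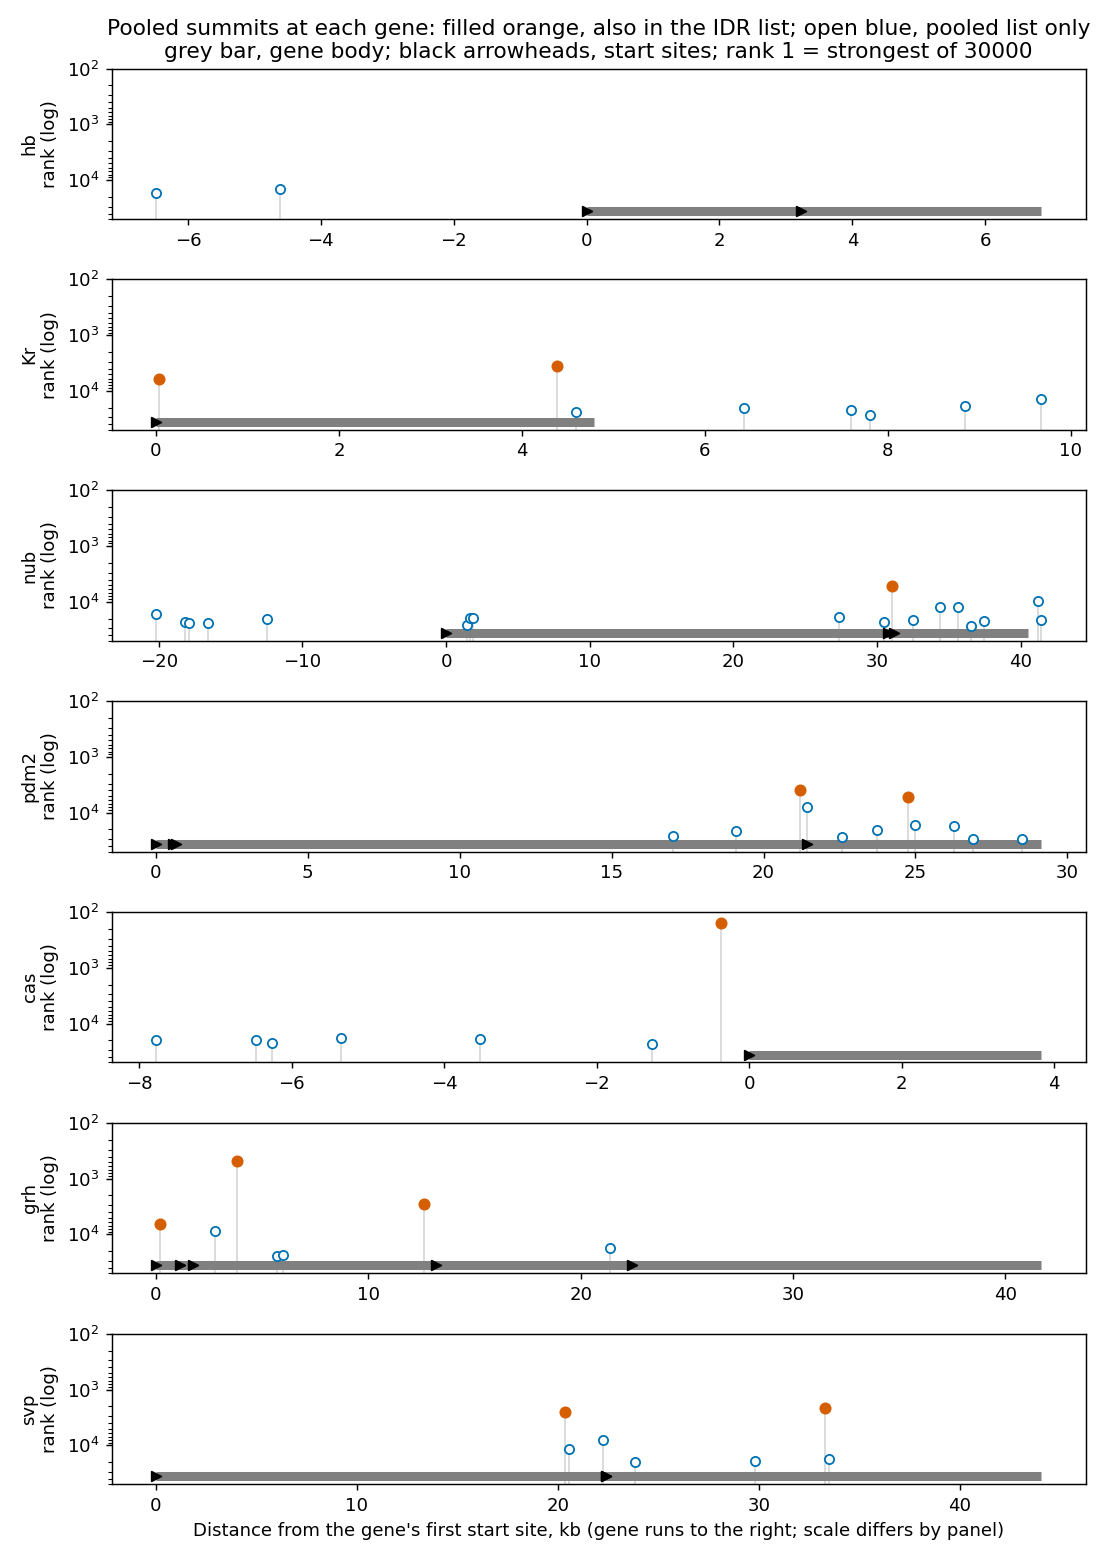
Pooled summits assigned to each temporal factor gene, by distance from the gene's first start site in kb (horizontal axis, gene running to the right) and rank among 30000 pooled peaks (vertical log axis, rank 1 at the top). Filled points are also in the IDR list and open points are not; the bar is the gene and arrowheads are its start sites. The cas promoter summit (rank 154) and the grh intron summit (rank 478) stand highest, and hb has only its 2 upstream summits.

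Of the 11 IDR summits of the members, 5 were found among the 7056 strongest peaks of all 3 replicates (45.5%, against 47.3% of all IDR summits). These were at cas, the strongest site of grh, the upstream site of pdm2 and both sites of svp. A further 4 were found there in 2 replicates and 2 in 1. Against all 30000 peaks of a replicate, 10 of the 11 had a match in every replicate, against 82.2% of all IDR summits, and the exception was the Kr promoter.

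Replicate 2 ordered these sites differently from the other 2. Of the 10 summits ranked in all replicates, replicate 2 gave 6 a worse rank than both others and 4 a better one, and none in between. Over all 5798 such IDR summits these shares were 42.2% worse and 46.2% better, so a split of this kind was general in the list. The 4 that were better in replicate 2 were the 3 grh sites and the pdm2 intron site. Base composition differed with this split, mostly through grh. The 200 bp around those 4 sites held 23.5 to 44.0% G+C, and around the 6 others 40.5 to 51.5%. At the grh sites it was 26.5, 31.5 and 23.5% in map order, the 3 lowest values among the members' IDR sites. On the log2 scale, the rank in replicate 2 over the geometric mean rank in replicates 1 and 3 ranged from -1.75 at the grh site before grh-RK to 2.51 at cas. Across the 10 members' sites Spearman's rho of this ratio with G+C content was 0.564, and across the 5798 sites of the list it was 0.681. The members' value rests on the 3 grh sites, which belong to 1 gene. Among the other members' sites the ratio did not rise with G+C. It was 2.51 at cas (40.5%), -0.37 at the pdm2 intron site (44.0%) and 1.62 at nub (51.5%). These are descriptions over sites that share the same 3 libraries. The part of base composition in the order of the sites was not tested.

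**Figure D3:**
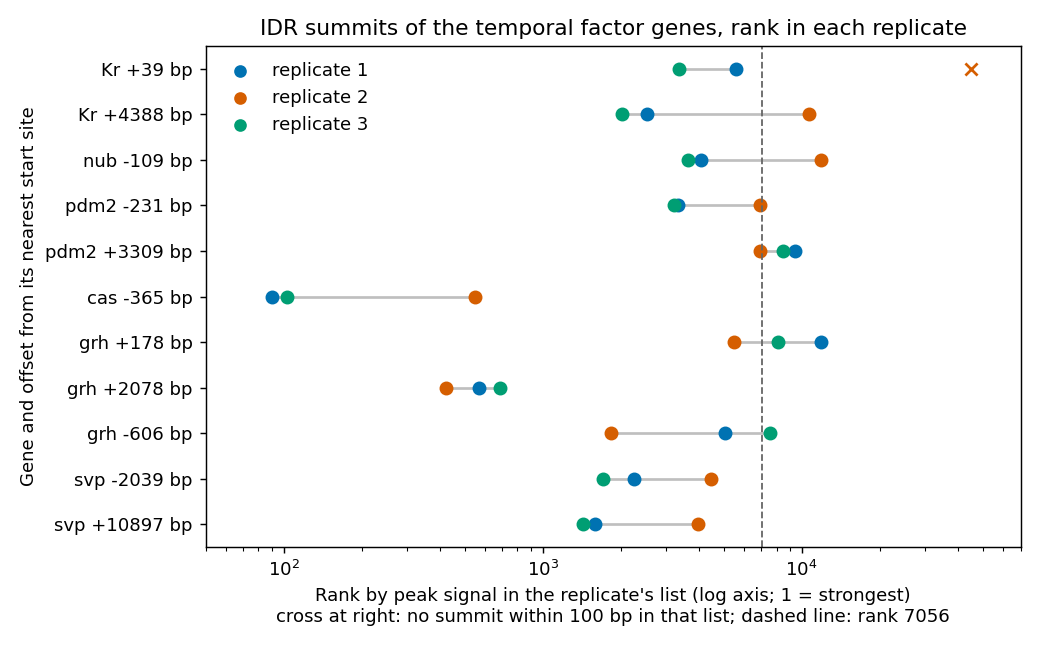
Rank of each member's IDR summit in replicates 1, 2 and 3 (horizontal log axis, 1 is the strongest peak), with the gene and its offset from the nearest start site on the vertical axis. The dashed line is rank 7056 and the cross marks the Kr promoter site, which had no match in replicate 2. At the 3 grh sites the point of replicate 2 lies farthest to the left, and at cas, Kr, nub and svp farthest to the right.

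**Figure D4:**
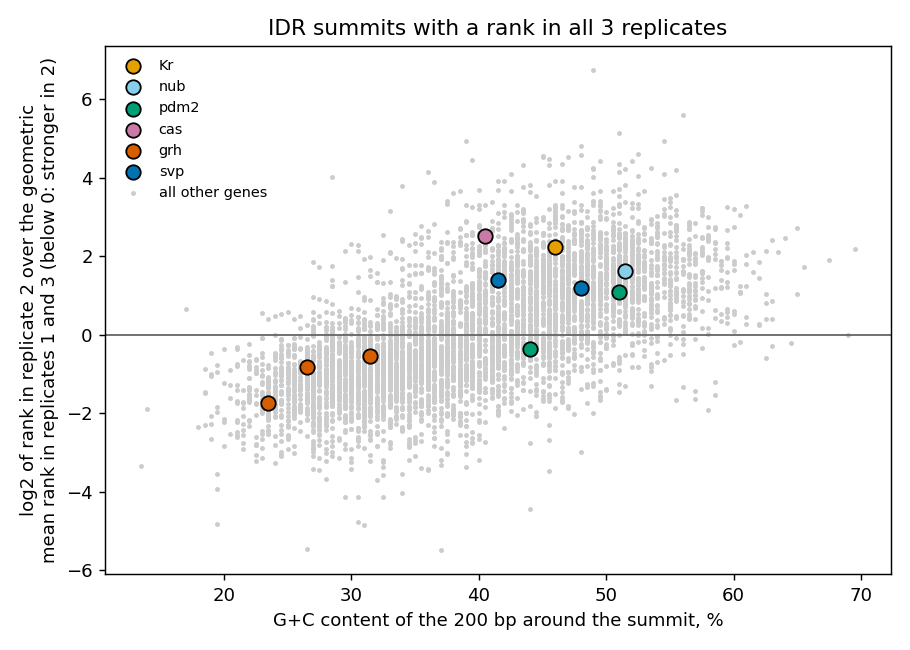
G+C content of the 200 bp around each IDR summit (horizontal axis, %) against the log2 ratio of its rank in replicate 2 to the geometric mean of its ranks in replicates 1 and 3 (vertical axis, below 0 means stronger in replicate 2). The members' 10 sites with all ranks are coloured by gene and the rest of the 5798 sites are grey. The grh sites, at 23.5 to 31.5% G+C, lie below 0, and cas, at 40.5%, lies highest of the members at 2.51.

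By location, the members' IDR summits were at promoters or in introns but for 1. Within 500 bp of a TSS lay 5 of 11 (45.5%, against 50.1% of all IDR summits), in introns 5 (45.5% against 32.8%) and in an exon outside coding sequence 1, the Kr 3′ UTR site. None lay in intergenic sequence, which held 14.2% of the whole list. Of the 49 pooled summits below the IDR list, 4 were at promoters (8.16%, against 26.7% of all pooled summits below that list) and 31 in introns (63.3% against 44.1%). Intergenic sequence held 11 (22.4% against 22.6%), of which 5 were upstream of cas, 4 upstream of nub and 2 upstream of hb. The promoter class counts start sites of any gene, also non-coding ones. The nub summit at 12571038 was in it at 119 bp from a TSS, inside lncRNA:CR44598, but lay 16587 bp from nub-RB. The intron class counts introns of any gene. The 5 such summits of Kr lay beyond Kr, in CG9380, and 2 of those given to nub lay beyond nub, in Ref2. None of the differences in location was tested.

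The members' weaker summits were often missing from replicate 2. Of the 49 pooled summits below the IDR list, 35 had a match among the 30000 peaks of replicate 1, 16 in replicate 2 and 33 in replicate 3. As shares these were 71.4, 32.7 and 67.3%, against 63.4, 56.9 and 58.7% of all pooled summits below the IDR list. At Kr, 2 of 8 pooled summits were matched in replicate 2, and at cas 2 of 7. The share was not low at every member: svp had 6 of 7 pooled summits matched in replicate 2 and grh had 5 of 7. Of the weaker summits alone, 4 of 5 were matched in replicate 2 at svp and 2 of 4 at grh. The median G+C content of the members' weaker summits was 45.5%, against 43.5% for all weaker pooled summits.

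At the 11 IDR summits of the members, the words sought made 6 pairs of a word and a site. Both strands of the 101 bp were searched for AAAAAA (a run of the kind Hb binds), AAGGGTT (Kr), ATGCAAAT (the POU octamer of Pdm proteins), AACCGGTT and its shorter form ACCGGTT (Grh), AGGTCA (the core bound by nuclear receptors such as Svp) and the E-box CAGCTG. The search also took GTGGGAA or GTGAGAA (Su(H), the Notch pathway factor), ACATTCC or GCATTCC (Scalloped), GAGAGAG (the GAGA factor Trl), CAGGTAG (Zelda) and TATCGATA (DREF). The words of Kr, Pdm, Grh and Svp were found at 0 of the 11 sites, and at 1.23% (Kr), 1.62% (Pdm), 0.283% (the short Grh word) and 1.64% (Svp) of all IDR summits. AAAAAA was at the cas promoter site, as the run shown in capitals above, and at the grh-RP site, 2 of 11 against 22.1% of all IDR summits. GAGAGAG was at the nub site and at the svp site before the start sites (2 of 11 against 3.39%). The svp site beyond the start sites held GTGAGAA (1 of 11 against 2.61%), and the Kr 3′ UTR site held CAGCTG (1 of 11 against 4.58%). The Scalloped words, present at 5.07% of all IDR summits, were at none of the 11. With 100 bp searched on each side, the short Grh word and a Scalloped word were each at 1 site, and with 25 bp the E-box word was at 0. A word in these windows is a match of letters only, and its absence says nothing of binding elsewhere in the gene.

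Other temporal factor genes, listed by their series, were looked up in the same way. The counts stand against the 28.6% of all protein-coding genes with an IDR summit, but the territories of these genes, 7.13 to 195 kb, are longer than the median of all genes. Among co-factors of the embryonic series (sqz, nab, dan, danr and D), 3 of 5 had an IDR summit. The best were at danr (rank 965) and dan (rank 2096), which encode nuclear proteins of the Pipsqueak type. The genes sqz and nab, which act downstream of Cas in late-born neurons, had no IDR summit. Both had summits in single replicates. In replicates 1, 2 and 3 the best ranked 3134, 7347 and 3816 at sqz and 4818, 10935 and 11544 at nab. In the optic lobe series, 9 of 10 genes had one, led by the forkhead gene slp2 (rank 378, 5 summits) and the nuclear receptor gene tll (rank 420, 3 summits). The exception was scro, which had no pooled summit either. Of the post-embryonic factors 6 of 8 had one. They were led by the BTB gene chinmo (rank 258, 10 summits) and the ecdysone receptor gene EcR (rank 374, 7 summits). No IDR summit was given to mamo or Eip93F. In single replicates the best summit of mamo ranked 956 in replicate 2 and 15096 in replicate 3, with none in replicate 1. That of Eip93F ranked 10737 in replicate 2, with none in replicates 1 and 3. Per 10 kb of territory the members had 0.587 IDR summits, the co-factors 0.594, the optic lobe genes 0.602 and the post-embryonic genes 0.713, against 0.535 for all genes. These differences were not tested. In the IDR list, cas at rank 154 stood above the best summit of every gene of these 3 lists. The same held in replicates 1 and 3 (ranks 90 and 103). It did not hold in replicate 2, where cas ranked 549, chinmo 159 and slp2 289.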

How the data were processed

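The authors deposited narrowPeak lists on the dm6 build: 1 for each replicate, 1 from the pooled alignments and 1 that passed an IDR threshold. Per their file listings, the replicate and pooled lists also drew on a control (not used here), and the IDR list was derived from the others. Neither aligner, peak caller nor IDR threshold is named (not given in the sources used here). Column 7 is a deposited signal whose normalization is not given, and it served only to rank peaks within a list. No signal value was tied. The lists hold no read counts, so depth is unknown and no interval was set from it.

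Genes came from Ensembl release 115 (BDGP6.54), which has dm6 coordinates, and sequence from RefSeq release 6. Pseudogenes and transposable elements were left out. Summits within 100 bp were matched between lists. A promoter summit lay within 500 bp of any TSS, and the rest were classed by exon (coding before other), intron or intergenic position. Base composition used 200 bp and words 50 bp on each side. Summits equally near to several genes went to the gene first in alphabetical order. Sequences overlapping a UTR or on some arms were not printed. The steps were checked on simulated positions and planted words (Python 3.11.15, pandas 2.3.3). Members and lists were chosen with earlier results of these data known. Members are all named. Of the other lists, the 2 best-ranked genes and up to 2 without a summit are named. Alternatives changed the gene assignment, the list, the matching distance, the promoter width, the word window and the replicates.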

Additional observations from a re-analysis of the deposited data

How the results depend on the processing

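The number of IDR summits at the members (11) was 10 with the nearest TSS of any gene, 13 by gene body, 10 within 10 kb of a TSS and 11 with shared intervals counted once, at 6, 5 and 6 members in the first 3 of these. Among the IDR peaks ranked above the list's median it was 5, at 3 members (cas, grh and svp). Leaving out a replicate, which keeps the IDR summits found among the strongest peaks of both others, gave 5 to 8 summits at 4 to 6 members. The lowest count, 5, came without replicate 1, and it was 6 without replicate 3. The number found in all 3 replicates (5) did not change with matching at 50 or 250 bp and was 10 against all 30000 peaks. Promoter summits (5) fell to 1 at 100 bp, the Kr promoter, and numbered 6 at 1000 bp. Pairs of a word and a site (6) numbered 4 with 25 bp and 14 with 100 bp on each side. For single words, 18 of 24 counts stayed within 1.5 times, but most of these were counts of 0 that stayed 0. AAAAAA was at 1 site with 25 bp and at 6 with 100 bp. The 100 bp window also gave 1 site each to ACCGGTT and the Scalloped words and 2 to the Su(H) words, and the 25 bp window gave 0 to CAGCTG. No paired analysis was possible because there is 1 group. With no reads or depths, a site missing from a list of 30000 peaks cannot be told from one just below its limit.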

Other observations

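Several strong summits of single replicates at these genes had no IDR summit within 100 bp. At nub, replicate 2 had summits 8371 bp (rank 5646) and 20176 bp (rank 6315) upstream of the distal start site, in intergenic sequence. The nearer one ranked 10383 in replicate 3, and neither had a match in replicate 1. At Kr, replicate 3 had summits 795 bp (rank 6806) and 11264 bp (rank 5563) upstream of the TSS. These lay outside Kr, in intron sequence that does not belong to it, and had no match in replicates 1 and 2. The svp promoter was among the strongest peaks of replicate 3 (rank 4058) and replicate 1 (rank 6509) and ranked 29933 in replicate 2. There the 200 bp around the summit held 56.0 to 58.5% G+C.

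The grh gene, with 3 IDR summits in 36.5 kb of territory, was most like Cnx99A, Ugt37B1 and CG31145 among the 272 other genes with 3 IDR summits, by the absolute log2 ratio of territory length (0.016, 0.019 and 0.023). Their best summits ranked 1251, 3021 and 118, against 478 at grh. More IDR summits than grh had were found at 375 genes, and more pooled summits than the 18 of nub at 239 genes.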
